A study of Mus musculus with 12 samples.

Results

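Hfe2 encodes hemojuvelin, a membrane-anchored co-receptor for bone morphogenetic proteins (BMPs) that is also named Hjv. It is described here with 9 further genes of the BMP pathway in C2C12 cells, a mouse myoblast line. The 10 genes were listed by name with earlier results of these data known, and Hfe2 was chosen on its large fall with the Crebl2 siRNA in these same libraries. They are 10 of the 38481 genes in the count files, and all 10 were among the 13247 genes with enough reads to be tested. The others were the ligand gene Bmp4, the receptor genes Bmpr1a and Bmpr2, the inhibitor genes Smad6, Smad7 and Bambi, and the target genes Id1, Id2 and Id3.

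The study crossed an siRNA with a drug in 4 groups of 3 libraries. Cells carried an siRNA against Crebl2, which encodes a small leucine zipper protein related to CREB, and received either rapamycin, an inhibitor of mTORC1, or ethanol, its solvent. The matching control cells carried an siRNA against Renilla luciferase (Luc), also with rapamycin or with ethanol. Knockdown lasted 3 days and rapamycin was given at 20 nM for 12 hours, with ethanol for the same time. All cells were C2C12 cells kept in medium with serum, and a single siRNA sequence against Crebl2 was used, so the data describe 1 line and 1 siRNA. Nothing in the labels ties the 3 libraries of a group to separate cultures, and the p-values therefore reflect the spread between libraries, which may be technical.

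BMPs bind complexes of type I receptors, such as the one encoded by Bmpr1a, and type II receptors, such as the one encoded by Bmpr2. The activated receptors phosphorylate Smad1, Smad5 and Smad9, which enter the nucleus with Smad4 and switch on the Id genes and the feedback inhibitors Smad6 and Smad7. Hemojuvelin strengthens this signal, is best known for inducing the iron hormone hepcidin in liver, and is also abundant in skeletal muscle. In myoblasts BMP signals hold back differentiation, in part because Id proteins sequester the E proteins with which MyoD and myogenin bind DNA.

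The libraries held 33404087 to 42891015 counted reads, and levels are given as CPM, edgeR's count of a gene relative to its TMM-scaled library size. The counts lack reads that overlap more than 1 listed transcript, and each gene was read over its countable bases, those belonging to a single listed transcript. Crebl2, the targeted gene, held 4.87 to 10.7 CPM in the 6 libraries with its siRNA and 23.8 to 40.0 CPM in the 6 with the Luc siRNA. The 6 myoblast and muscle markers examined (Myod1, Myf5, Pax7, Des, Myog and Mymk) were all above 1 CPM in at least 1 library. Of 7 osteoblast markers, 5 were under 1 CPM in every library and Ibsp was at 0. Of 4 adipocyte markers 3 were under 1 CPM throughout, and all markers of endothelial cells, immune cells, hepatocytes and neurons were. Some markers had few countable bases, such as the osteoblast marker Spp1 with 7 and the immune markers Adgre1 with 114 and Cd68 with 276. A low level of these does not show that they were absent.

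Hfe2 stood at a different level in each of the 4 groups (GRCm38, chr3:96525172-96529210, plus strand, all 2028 exonic bases countable). With the Crebl2 siRNA and rapamycin its 3 libraries held 1.35, 0.783 and 1.52 CPM, and with the Crebl2 siRNA and ethanol 2.22, 3.03 and 3.48 CPM. With the Luc siRNA and rapamycin they held 8.57, 6.80 and 7.94 CPM, and with the Luc siRNA and ethanol 25.1, 24.4 and 20.2 CPM. The groups did not overlap, and from lowest to highest the order was Crebl2 with rapamycin, Crebl2 with ethanol, Luc with rapamycin and Luc with ethanol. In bulk RNA, fewer cells that make a transcript and less transcript per cell cannot be told apart.

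The contrasts of siRNAs chose Hfe2, so they are given without a test. In ethanol the mean was 2.91 ± 0.638 CPM with the Crebl2 siRNA and 23.2 ± 2.62 CPM with the Luc siRNA (SD, n = 3 each), and in the fit Hfe2 was 7.99-fold lower with the Crebl2 siRNA. In rapamycin the mean was 1.22 ± 0.387 CPM with the Crebl2 siRNA and 7.77 ± 0.894 CPM with the Luc siRNA (SD, n = 3 each), and Hfe2 was 6.37-fold lower with the Crebl2 siRNA. The rapamycin contrasts were not used to choose the gene but share these libraries, so their p-values are not free of that choice. A choice on the fall with the Crebl2 siRNA favours high values with the Luc siRNA and low ones with the Crebl2 siRNA. Hfe2 fell with rapamycin in cells with the Crebl2 siRNA, by 1.25 on the log2 scale (SE 0.22, edgeR quasi-likelihood adjusted p = 2.0e-04), or 2.39-fold. It also fell with rapamycin in cells with the Luc siRNA, by 1.58 on the log2 scale (SE 0.15, edgeR adjusted p = 5.8e-07), or 2.99-fold. Beside the siRNA contrasts, the summed level of 4 adipocyte markers ranged over 0.790 to 1.62 CPM in the 6 libraries with the Crebl2 siRNA. In the 6 with the Luc siRNA it ranged over 0.275 to 0.504 CPM. Fabp4 made up most of that sum. In rapamycin Fabp4 averaged 1.07 CPM with the Crebl2 siRNA and 0.337 CPM with the Luc siRNA, and in ethanol 0.788 and 0.228 CPM. Adipoq, Plin1 and Cfd averaged no more than 0.0600 CPM in any group. The part of the summed level in the Hfe2 values was not tested. Hfe2 had 27 to 1026 reads per library.

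**Figure D1:**
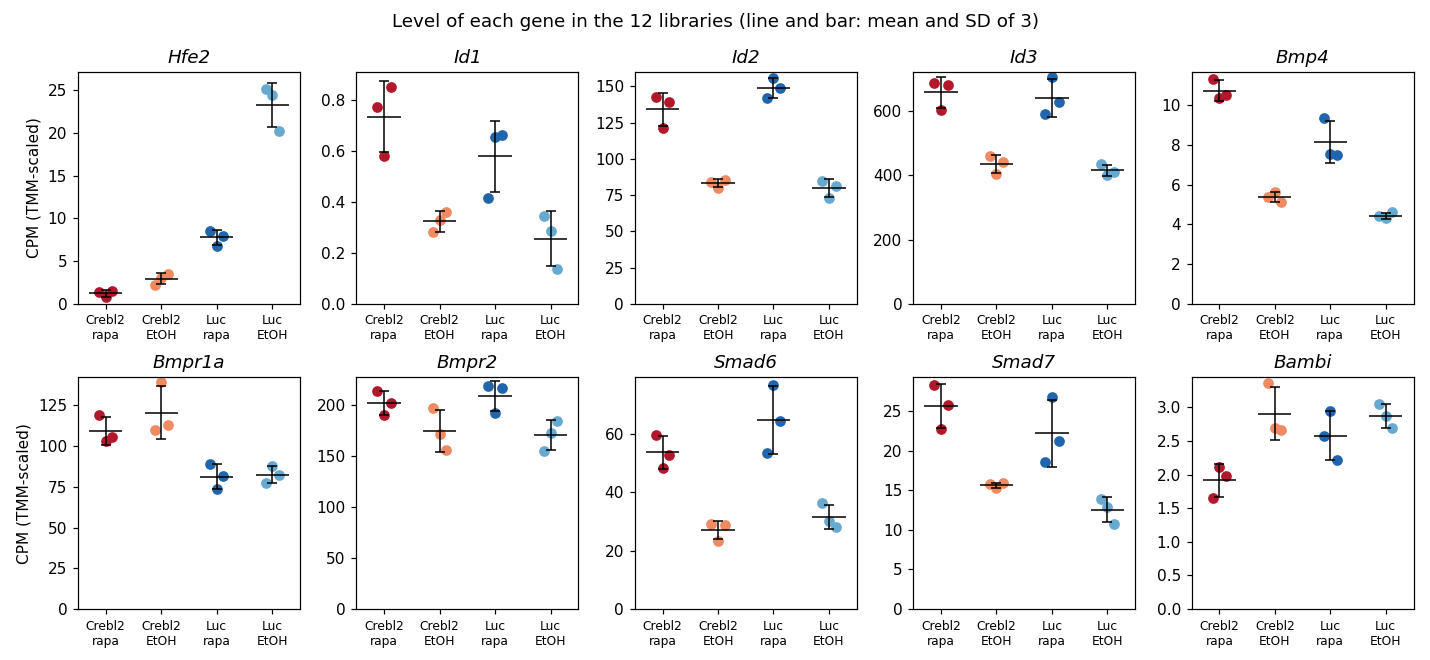
Levels of the 10 genes in TMM-scaled CPM on linear axes from 0, 1 panel per gene. Points are the 3 libraries of each group, lines the group means and error bars the SD. Hfe2 differs between all 4 groups, with means of 1.22 to 23.2 CPM, while most of the other genes separate by drug.

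Of the 9 genes other than Hfe2, 7 rose and 1 did not pass in cells with the Crebl2 siRNA on rapamycin, and Bambi fell (edgeR quasi-likelihood test, adjusted p under 0.05). Among all tested genes, 19.7% rose and 25.6% fell in that comparison. In cells with the Luc siRNA on rapamycin 7 of the 9 rose and 2 did not pass, against 19.5% of all tested genes that rose and 21.6% that fell. The same 7 genes rose in both: Id1, Id2, Id3, Bmp4, Bmpr2, Smad6 and Smad7. The 9 genes were listed with earlier results of these data known, so the counts are a description. The median log2 fold change of the 9 genes was 0.69 with the Crebl2 siRNA and 0.82 with the Luc siRNA, where the medians of all tested genes were −0.01 and 0.02. Libraries in rapamycin did not overlap with those in ethanol for 7 of the 9 genes under each siRNA, as for 53.6% of all tested genes under the Crebl2 siRNA and 50.4% under the Luc siRNA. Beside these rises, the summed level of the 7 osteoblast markers ranged over 3.13 to 3.93 CPM in rapamycin and 2.52 to 3.03 CPM in ethanol with the Crebl2 siRNA. With the Luc siRNA that sum ranged over 3.48 to 3.53 CPM in rapamycin and 2.42 to 3.04 CPM in ethanol. Its markers did not move together. By group mean Sp7, Runx2 and Alpl were higher in rapamycin under both siRNAs, and Bglap and Spp1 were lower under both. Bglap2 was higher in rapamycin with the Crebl2 siRNA and lower with the Luc siRNA, and Ibsp was at 0. The part of the summed level in the result was not tested.

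Between the siRNAs, 2 of the 9 rose in ethanol, Bmpr1a and Bmp4, and 7 did not pass, against 21.4% of all tested genes that rose and 17.0% that fell. In rapamycin the same genes, Bmpr1a and Bmp4, rose, Bambi fell and 6 did not pass, against 16.3% of all tested genes that rose and 16.8% that fell. The medians of the 9 genes were 0.07 in ethanol and 0.04 in rapamycin on the log2 scale, and those of all tested genes were 0.01 and −0.01. Groups did not overlap for 3 of the 9 genes in each of these contrasts, as for 46.9% of all tested genes in ethanol and 46.0% in rapamycin. Counts this near the shares of all genes are no result about the 9 genes together.

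**Figure D2:**
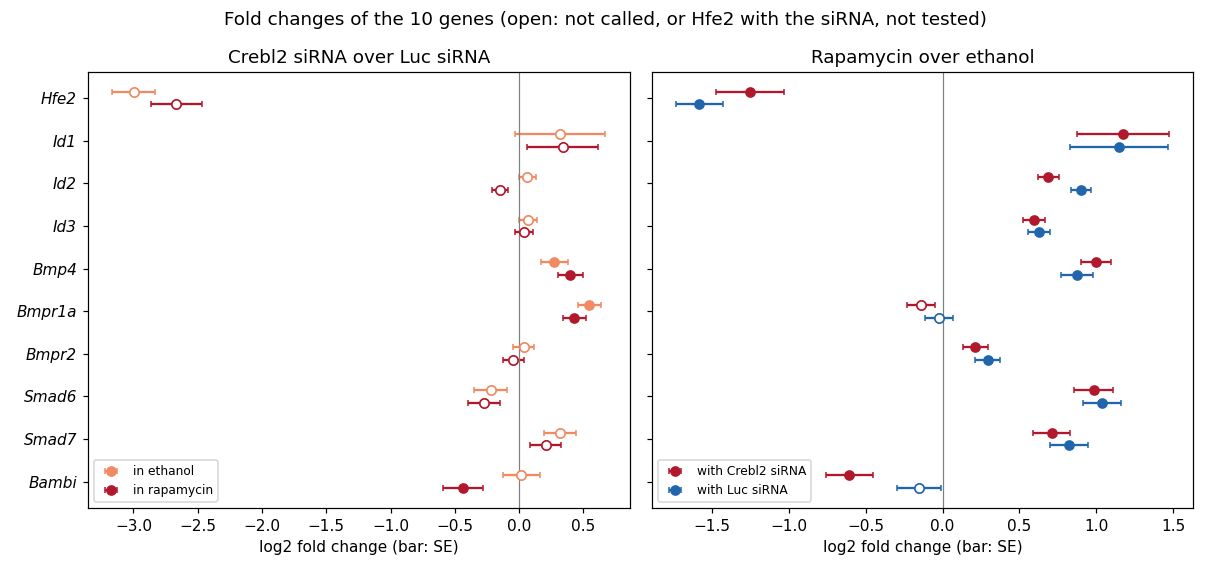
Log2 fold changes of the 10 genes for the Crebl2 siRNA over the Luc siRNA (left) and for rapamycin over ethanol (right), with standard errors from the edgeR fit across all genes. Filled points pass an adjusted p of 0.05, and the Hfe2 contrasts between siRNAs, at −3.00 and −2.67, are drawn open and carry no test because they chose the gene.

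The promoters of the genes that rose more than 1.5-fold with rapamycin show the bases around their RefSeq start sites. RefSeq promoter sequences on GRCm38.p6, from 250 bases before to 50 bases after the start, were at hand for 6 of the 10 genes: Id2, Id3, Bmp4, Bmpr1a, Bmpr2 and Smad6. Hfe2, Id1, Smad7 and Bambi were not matched. Of the 6, Id2 (chr12:25096043-25096342, minus strand), Id3 (chr4:136143572-136143871, plus strand), Bmp4 (chr14:46390620-46390919, minus strand) and Smad6 (chr9:64022010-64022309, minus strand) passed that fold and are printed 5′ to 3′. Capitals mark GGCGCC and GGAGCC (or its reverse complement GGCTCC), known as Smad-binding letters of BMP target genes, and GTCTAGAC, the palindrome bound by Smad3 and Smad4.
Id2: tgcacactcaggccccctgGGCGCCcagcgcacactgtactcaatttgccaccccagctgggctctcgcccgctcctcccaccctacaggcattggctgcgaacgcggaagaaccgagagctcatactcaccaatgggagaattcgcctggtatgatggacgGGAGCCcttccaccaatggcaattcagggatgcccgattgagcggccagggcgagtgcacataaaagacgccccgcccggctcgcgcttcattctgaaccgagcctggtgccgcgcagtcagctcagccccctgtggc
Id3: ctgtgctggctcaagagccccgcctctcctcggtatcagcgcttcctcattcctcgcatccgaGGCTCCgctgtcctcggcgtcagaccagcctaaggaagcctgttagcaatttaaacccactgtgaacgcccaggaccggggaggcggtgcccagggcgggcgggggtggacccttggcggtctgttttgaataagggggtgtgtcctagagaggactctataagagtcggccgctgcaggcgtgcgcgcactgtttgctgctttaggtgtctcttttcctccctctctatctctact
Bmp4: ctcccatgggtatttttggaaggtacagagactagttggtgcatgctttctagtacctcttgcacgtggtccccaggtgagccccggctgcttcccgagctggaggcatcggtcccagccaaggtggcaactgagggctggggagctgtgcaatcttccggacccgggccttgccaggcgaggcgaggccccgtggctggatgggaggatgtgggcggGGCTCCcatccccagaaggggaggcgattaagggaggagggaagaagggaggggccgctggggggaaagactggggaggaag
Smad6: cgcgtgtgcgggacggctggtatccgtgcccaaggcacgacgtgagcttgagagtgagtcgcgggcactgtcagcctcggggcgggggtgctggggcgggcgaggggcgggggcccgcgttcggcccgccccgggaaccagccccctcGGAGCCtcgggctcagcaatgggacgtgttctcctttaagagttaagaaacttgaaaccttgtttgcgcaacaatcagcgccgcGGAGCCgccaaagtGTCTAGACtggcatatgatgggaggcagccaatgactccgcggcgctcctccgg
Matches were searched on both strands, and positions are from the RefSeq start. The counted Id3 transcript starts at chr4:136143497, so the printed Id3 stretch lies within its span and not upstream of it. The Bmpr2 stretch likewise lies within the span of the counted Bmpr2 transcript. GGCGCC starts at −231 from the Id2 start site and GGAGCC at −88. GGAGCC, as GGCTCC, starts at −187 in Id3 and at −32 in Bmp4, and Smad6 holds it at −102 and at −18. GTCTAGAC starts at −4 in Smad6 and occurs in 70 of 32851 promoters of the same length, or 0.213%. GGCGCC occurs in 11.9% of those promoters and GGAGCC in 30.8%, so most of these matches are common. Bmpr1a and Bmpr2 each hold GGCGCC as well, at −198 and at −105. The cAMP-response palindrome TGACGTCA, searched because CREB-family factors bind it, occurs in 1.79% of promoters and in none of the 6. Its shorter core TGACG, which lies within that palindrome, occurs in 20.8% of promoters and in 1 of the 6, Id3, where it starts at −170 as CGTCA. A further GC-rich word, GCCGNCGC, occurs in 9.76% of promoters and in 1 of the 6, Bmpr1a. A match is a stretch of letters and not a measured site.

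The receptor genes parted by treatment. Bmpr1a, a type I receptor, rose with the Crebl2 siRNA and did not pass with rapamycin. In ethanol its libraries held 110, 139 and 113 CPM with the Crebl2 siRNA, against 77.5, 87.7 and 82.6 CPM with the Luc siRNA. In rapamycin they held 119, 103 and 106 CPM with the Crebl2 siRNA, against 88.9, 73.7 and 81.5 CPM with the Luc siRNA. Every library with the Crebl2 siRNA was above every library with the Luc siRNA. The log2 fold change was 0.55 in ethanol (SE 0.09, edgeR adjusted p = 0.00018) and 0.43 in rapamycin (SE 0.09, edgeR adjusted p = 0.0017). The countable bases of its main transcript, 4101 in number, lie in the UTRs and none in its coding sequence, so the values describe those stretches.

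Bmpr2, the type II receptor that phosphorylates it, rose slightly with rapamycin. Under the Crebl2 siRNA it held 214, 191 and 202 CPM in rapamycin, against 197, 171 and 156 CPM in ethanol, and these overlapped. Under the Luc siRNA it held 218, 192 and 217 CPM in rapamycin, against 155, 173 and 184 CPM in ethanol, without overlap. The log2 fold change was 0.21 for Crebl2 (SE 0.08, edgeR adjusted p = 0.048) and 0.29 for Luc (SE 0.08, edgeR adjusted p = 0.0098). The call under the Crebl2 siRNA was lost in 6 of 21 alternatives. The call under the Luc siRNA was lost without its rapamycin library 1 or 3 (adjusted p up to 0.0652).

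Bmp4, the ligand of the list, was the 1 gene of the 9 called higher in all 4 contrasts. Under the Crebl2 siRNA it held 11.3, 10.3 and 10.5 CPM in rapamycin, against 5.35, 5.61 and 5.13 CPM in ethanol. In cells given the Luc siRNA it held 9.35, 7.56 and 7.49 CPM in rapamycin, against 4.40, 4.30 and 4.59 CPM in ethanol. The 4 groups did not overlap. It rose with rapamycin by a log2 fold change of 1.00 (SE 0.10, edgeR adjusted p = 6.9e-07) with the Crebl2 siRNA and of 0.88 (SE 0.10, edgeR adjusted p = 4.9e-06) with the Luc siRNA. It rose with the Crebl2 siRNA by 0.40 (SE 0.10, edgeR adjusted p = 0.0049) in rapamycin and by 0.27 (SE 0.10, edgeR adjusted p = 0.0498) in ethanol, and this last call was lost in 17 of 20 alternatives. Its 431 countable bases, 20.9% of its exonic bases, are 244 of 5′ UTR and 187 of 3′ UTR.

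Smad6 and Smad7 encode inhibitory Smads, which are induced by BMP signals and block them. Smad6 held 59.6, 48.4 and 52.8 CPM in rapamycin with the Crebl2 siRNA, against 29.1, 23.5 and 28.6 CPM in ethanol. In Luc siRNA cells it held 53.4, 76.8 and 64.3 CPM in rapamycin, against 36.3, 30.3 and 28.2 CPM in ethanol. The drug separated all libraries, and the log2 fold changes were 0.98 (SE 0.13, edgeR adjusted p = 1.1e-05) with the Crebl2 siRNA and 1.04 (SE 0.12, edgeR adjusted p = 6.9e-06) with the Luc siRNA. The siRNA contrasts of Smad6 were −0.22 in ethanol and −0.27 in rapamycin and did not pass (edgeR adjusted p = 0.20 and 0.099).

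Smad7, whose product inhibits TGF-beta signals as well, followed the drug too. It held 28.3, 22.7 and 25.8 CPM in rapamycin with the Crebl2 siRNA, against 15.8, 15.3 and 15.9 CPM in ethanol. Cells with the Luc siRNA held 18.6, 26.8 and 21.3 CPM in rapamycin, against 13.9, 12.9 and 10.8 CPM in ethanol. It rose with rapamycin by a log2 fold change of 0.71 (SE 0.12, edgeR adjusted p = 0.00016) with the Crebl2 siRNA and of 0.82 (SE 0.12, edgeR adjusted p = 5.8e-05) with the Luc siRNA. In ethanol its libraries with the Crebl2 siRNA were all above those with the Luc siRNA. That contrast, 0.32 (SE 0.12), narrowly missed (edgeR adjusted p = 0.055) and passed in 7 of 20 alternatives. The 2396 countable bases of the main Smad7 transcript are 1354 of 5′ UTR and 1042 of 3′ UTR, with none in its coding sequence. Of these bases, 586 lie in an intron of another listed Smad7 transcript.

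Bambi, a decoy receptor that lacks a kinase, went the other way in cells with the Crebl2 siRNA. These held 1.65, 2.12 and 1.98 CPM in rapamycin, against 3.37, 2.70 and 2.66 CPM in ethanol, a log2 fold change of −0.61 (SE 0.15, edgeR adjusted p = 0.0039). Cells with the Luc siRNA held 2.58, 2.95 and 2.21 CPM in rapamycin, against 3.05, 2.88 and 2.69 CPM in ethanol, which overlapped (−0.15, edgeR adjusted p = 0.43). Between siRNAs in rapamycin it was −0.44 (SE 0.15, edgeR adjusted p = 0.04), a call lost in 11 of 21 alternatives. Whether rapamycin acted differently under the 2 siRNAs was tested as an interaction, −0.45 (SE 0.21), which did not pass (edgeR adjusted p = 0.34).

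The Id genes, direct targets of BMP-activated Smads, rose with rapamycin and did not pass in either siRNA contrast. Id3, the most abundant of the 10 genes, held 688, 604 and 682 CPM in rapamycin with the Crebl2 siRNA, against 460, 405 and 443 CPM in ethanol. Under the Luc siRNA it held 591, 707 and 628 CPM in rapamycin, against 434, 403 and 409 CPM in ethanol. Its log2 fold changes were 0.60 (SE 0.07, edgeR adjusted p = 4.0e-06) with the Crebl2 siRNA and 0.63 (SE 0.07, edgeR adjusted p = 3.0e-06) with the Luc siRNA. The siRNA contrasts were 0.07 in ethanol and 0.04 in rapamycin (edgeR adjusted p = 0.47 and 0.74).

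Id2 held 143, 121 and 139 CPM in rapamycin with the Crebl2 siRNA, against 84.3, 80.3 and 85.3 CPM in ethanol. In cells with the Luc siRNA it held 142, 156 and 149 CPM in rapamycin, against 85.0, 73.2 and 81.4 CPM in ethanol. The drug groups did not overlap under either siRNA, and the log2 fold changes were 0.69 (SE 0.07, edgeR adjusted p = 4.5e-07) with the Crebl2 siRNA and 0.90 (SE 0.07, edgeR adjusted p = 3.2e-08) with the Luc siRNA. The interaction was −0.21 (SE 0.09) and did not pass (edgeR adjusted p = 0.32).

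Id1 could be read only from 226 bases, chr2:152736746-152736971, which lie in the intron of its spliced transcript. That transcript has no countable base, so the values do not describe the spliced Id1 RNA. These bases held 0.770, 0.580 and 0.852 CPM in rapamycin with the Crebl2 siRNA, against 0.280, 0.330 and 0.360 CPM in ethanol. Under the Luc siRNA they held 0.416, 0.655 and 0.664 CPM in rapamycin, against 0.344, 0.285 and 0.137 CPM in ethanol. Levels in rapamycin were higher without overlap under both siRNAs, with log2 fold changes of 1.17 (SE 0.30, edgeR adjusted p = 0.0046) and 1.15 (SE 0.32, edgeR adjusted p = 0.0087) for Crebl2 and Luc. They rest on 5 to 29 reads per library.

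Levels of different genes can be compared per kilobase of countable sequence. With the Luc siRNA in ethanol Id3 stood at 325 CPM per kilobase and Id2 at 62.9. Bmpr1a followed at 19.7, Bmpr2 at 13.2, Smad6 at 11.7, Hfe2 at 11.5 and Bmp4 at 10.3 CPM per kilobase. Smad7 stood at 5.02, the Id1 intron at 1.13 and Bambi at 0.566 CPM per kilobase. With the Crebl2 siRNA in ethanol Hfe2 stood at 1.43, and in rapamycin at 0.601 with the Crebl2 siRNA and 3.83 CPM per kilobase with the Luc siRNA. With all exonic bases as the length, Bmp4 came to 2.15 and Smad7 to 2.86 CPM per kilobase, Smad6 to 10.6, below Hfe2, and Id1 to 0.220, below Bambi. Bmpr1a came to 13.7 CPM per kilobase and kept its place.

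For the 9 genes other than Hfe2, the response to rapamycin was also compared between the siRNAs through the interaction term. edgeR called none of the 9 (1.2% of all tested genes were called), DESeq2 called none, and 2 had an unadjusted p under 0.05, Bambi and Id2. That does not show that the responses were equal. For Hfe2 the interaction was 0.33 (SE 0.27), given without a test.

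The wider pathway was described by lists of genes, also chosen with earlier results of these data known. Hfe2 was left out of the lists, and their members include those above. Of 8 tested BMP receptors and co-receptors, 1 rose (Bmpr1a) and 2 fell with the Crebl2 siRNA in ethanol, against 21.4% and 17.0% of all tested genes. The median log2 fold change of the list was −0.13. Counts this near the shares of all genes are no result about the list. The 2 that fell were Tgfbr3, which encodes betaglycan, a co-receptor for TGF-beta and inhibin, and Rgmb, a relative of hemojuvelin in the repulsive guidance molecule family. In ethanol Tgfbr3 averaged 20.8 ± 1.25 CPM with the Crebl2 siRNA and 46.9 ± 2.21 CPM with the Luc siRNA (SD, n = 3 each), a log2 fold change of −1.17 (SE 0.06, edgeR adjusted p = 2.1e-09). Rgmb averaged 38.1 ± 1.02 CPM with the Crebl2 siRNA and 54.4 ± 4.05 CPM with the Luc siRNA (SD, n = 3 each), a log2 fold change of −0.52 (SE 0.07, edgeR adjusted p = 3.3e-05). Rgmb fell with rapamycin as well, by 0.24 on the log2 scale under each siRNA (edgeR adjusted p = 0.013 for Crebl2 and 0.012 for Luc). Rgma, the remaining family member, had at most 4 reads in a library over 165 countable bases and was not tested. Neo1, the neogenin gene whose product binds hemojuvelin, averaged 326 ± 9.65 CPM with the Crebl2 siRNA and 382 ± 5.36 CPM under the Luc siRNA in rapamycin (SD, n = 3 each), a log2 fold change of −0.23 (SE 0.05, edgeR adjusted p = 0.0011).

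Among the 5 tested ligand genes of 13 listed, Bmp4 was the 1 called with rapamycin under either siRNA. It rose, as did 19.7% of all tested genes under the Crebl2 siRNA and 19.5% under the Luc siRNA. Bmp2 had 0 reads in every library although all 3555 of its bases were countable. Gdf7, a BMP-family ligand, fell with the Crebl2 siRNA in ethanol, with 0.162 ± 0.0708 CPM under the Crebl2 siRNA and 0.451 ± 0.123 CPM under the Luc siRNA (SD, n = 3 each), a log2 fold change of −1.50 (SE 0.36, edgeR adjusted p = 0.0039). Gdf6, a related ligand, stood at 0.264 ± 0.0700 CPM under the Crebl2 siRNA and 0.0402 ± 0.0365 CPM under the Luc siRNA in ethanol (SD, n = 3 each), with no more than 16 reads in any library.

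Secreted antagonists and binders moved in both directions. With the Crebl2 siRNA in ethanol 4 of 11 rose and 3 fell, against 21.4% and 17.0% of all tested genes. In rapamycin 4 rose and 5 fell, against 16.3% and 16.8% of all tested genes. Fst, which encodes follistatin, a binder of activins and of several BMPs, rose in all 4 contrasts. It averaged 45.1 ± 2.44 CPM with the Crebl2 siRNA in rapamycin and 24.1 ± 0.881 CPM with the Crebl2 siRNA in ethanol (SD, n = 3 each). With the Luc siRNA it averaged 17.7 ± 1.03 CPM in rapamycin and 9.36 ± 0.699 CPM in ethanol (SD, n = 3 each). Its log2 fold changes for the Crebl2 siRNA were 1.37 in ethanol (SE 0.07, edgeR adjusted p = 2.8e-09) and 1.35 in rapamycin (SE 0.07, edgeR adjusted p = 1.5e-09). Chrd, which encodes the BMP-sequestering protein chordin, fell with the Crebl2 siRNA in ethanol by 0.95 on the log2 scale (SE 0.08) and rose with rapamycin by 0.94 under the Crebl2 siRNA (SE 0.08). Bmper, whose product binds BMPs, fell with the Crebl2 siRNA by 0.72 in ethanol (SE 0.05) and by 0.85 in rapamycin (SE 0.05). With rapamycin 6 of the 11 rose and 2 fell under the Crebl2 siRNA, against 19.7% and 25.6% of all tested genes. Under the Luc siRNA 6 rose and 0 fell, against 19.5% and 21.6% of all tested genes.

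Of 7 tested Smads and Smad ubiquitin ligases of the BMP branch, 4 rose with rapamycin under the Crebl2 siRNA and 6 under the Luc siRNA. Among all tested genes 19.7% and 19.5% rose. Smad6 and Smad7, members already counted above, are among both the 4 and the 6. The medians of the list were 0.23 and 0.36. Smad1, a transducer of BMP signals, rose by 0.20 (SE 0.07) under the Crebl2 siRNA and 0.28 (SE 0.07) under the Luc siRNA. Smad9, a further transducer, rose by 0.74 with rapamycin under the Luc siRNA (SE 0.09, edgeR adjusted p = 7.8e-06). With the Crebl2 siRNA in rapamycin Smad9 fell by 0.47 (SE 0.09), and Smurf2, a ubiquitin ligase that targets Smads, by 0.14 (SE 0.05), a call that several alternatives lost.

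Of 14 tested BMP target genes, 8 rose with rapamycin and 2 fell under the Crebl2 siRNA and 10 rose and 1 fell under the Luc siRNA, with median log2 fold changes of 0.64 and 0.76. Among all tested genes 19.7% rose and 25.6% fell under the Crebl2 siRNA, and 19.5% rose and 21.6% fell under the Luc siRNA. Of the target genes that rose, 5 are members already counted above, namely Id1, Id2, Id3, Smad6 and Smad7. Atoh8, a helix-loop-helix factor induced by BMP in liver, averaged 94.0 ± 6.61 CPM in rapamycin and 50.4 ± 2.90 CPM in ethanol with the Crebl2 siRNA (SD, n = 3 each). With the Luc siRNA its libraries held 109, 137 and 119 CPM in rapamycin, against 69.2, 62.5 and 66.2 CPM in ethanol. Its log2 fold change with rapamycin was 0.90 (SE 0.08, edgeR adjusted p = 1.6e-07) under the Crebl2 siRNA and 0.88 (SE 0.08, edgeR adjusted p = 2.2e-07) under the Luc siRNA. Hey1, a target of both Notch and BMP signals, fell instead, by 0.72 under the Crebl2 siRNA (SE 0.08, edgeR adjusted p = 2.6e-06) and by 1.36 under the Luc siRNA (SE 0.08, edgeR adjusted p = 4.1e-09). Between siRNAs the list had medians of 0.07 in ethanol and −0.06 in rapamycin. In ethanol 1 of 14 was higher and 1 lower, against 21.4% and 17.0% of all tested genes. In rapamycin 1 was higher and 2 lower, against 16.3% and 16.8% of all tested genes.

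**Figure D3:**
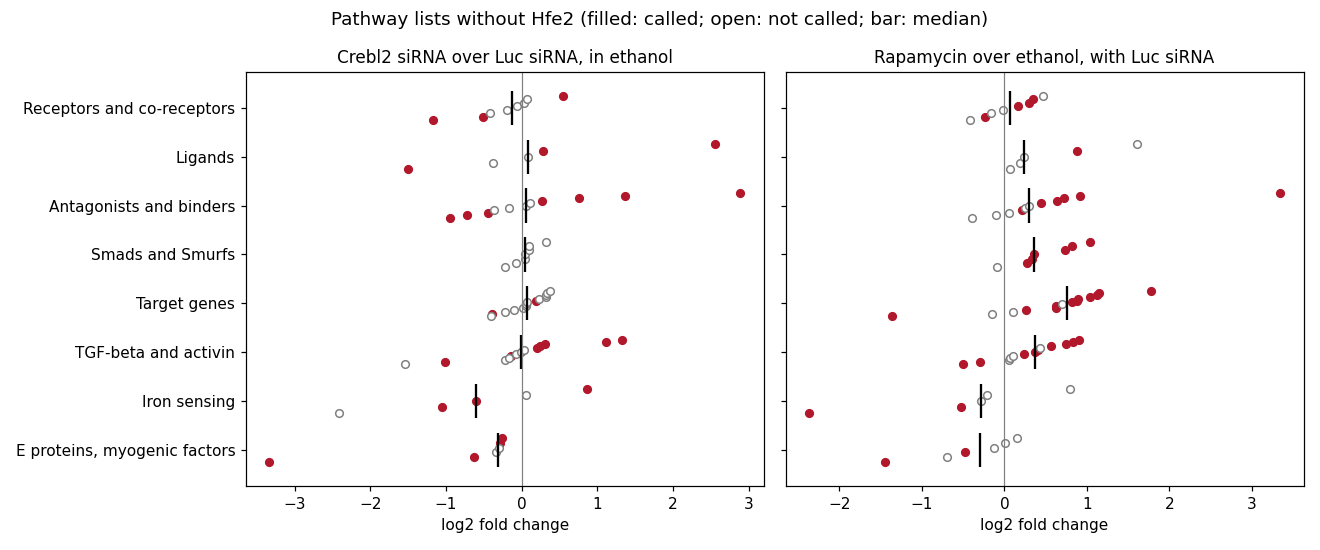
Log2 fold changes of the tested genes in each list, for the Crebl2 siRNA over the Luc siRNA in ethanol (left) and for rapamycin over ethanol with the Luc siRNA (right). Points are genes, filled where the edgeR adjusted p is under 0.05, and bars are list medians. BMP target genes have a median of 0.07 on the left and 0.76 on the right.

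In the TGF-beta and activin branch, run by related receptors through Smad2 and Smad3, 5 of 13 tested genes rose and 2 fell with the Crebl2 siRNA in ethanol. Of all tested genes 21.4% rose and 17.0% fell there. With rapamycin 6 of the 13 rose and 1 fell under the Crebl2 siRNA, against 19.7% and 25.6% of all tested genes. Under the Luc siRNA 7 rose and 2 fell, against 19.5% and 21.6%. Tgfb3, a TGF-beta ligand, rose with rapamycin by 0.71 (SE 0.05) under the Crebl2 siRNA and 0.75 (SE 0.05) under the Luc siRNA.

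Genes that process hemojuvelin or sense iron were also listed, and 5 of 7 were tested. Tmprss6, the protease that cleaves hemojuvelin in liver, averaged 1.37 ± 0.161 CPM under the Crebl2 siRNA and 2.86 ± 0.450 CPM under the Luc siRNA in ethanol (SD, n = 3 each), a log2 fold change of −1.05 (SE 0.16, edgeR adjusted p = 0.00012). Hfe, an iron regulator unrelated in sequence to Hfe2, fell with the Crebl2 siRNA by 0.60 in ethanol (SE 0.17, edgeR adjusted p = 0.01) and by 0.69 in rapamycin (SE 0.18, edgeR adjusted p = 0.0082). The Hfe calls were lost in 1 of 12 fits that left out a library in ethanol (without ethanol library 1 of the Luc siRNA, adjusted p = 0.0526). In rapamycin they were lost in 2 of 12 (without rapamycin library 1 of either siRNA, adjusted p = 0.0524 and 0.0549). Tfrc, the transferrin receptor gene, averaged 23.3 ± 1.57 CPM in rapamycin and 111 ± 22.1 CPM in ethanol with the Crebl2 siRNA (SD, n = 3 each), and 11.9 ± 0.459 CPM in rapamycin and 61.4 ± 6.56 CPM in ethanol with the Luc siRNA (SD, n = 3 each). It fell with rapamycin by 2.25 (SE 0.12, edgeR adjusted p = 4.2e-10) under the Crebl2 siRNA and by 2.37 (SE 0.12, edgeR adjusted p = 6.6e-10) under the Luc siRNA, and rose with the Crebl2 siRNA by 0.86 in ethanol (SE 0.11). Hamp, the hepcidin gene and the liver target of hemojuvelin, had at most 1 read in a library.

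Among E proteins and myogenic factors, the partners that Id proteins act on, 4 of 6 tested genes fell with the Crebl2 siRNA in ethanol and 2 fell in rapamycin, where 17.0% and 16.8% of all tested genes fell. Myog, which encodes the differentiation factor myogenin, averaged 8.96 ± 2.48 CPM with the Crebl2 siRNA and 74.5 ± 6.13 CPM with the Luc siRNA in rapamycin (SD, n = 3 each). In ethanol Myog averaged 20.1 ± 4.19 CPM with the Crebl2 siRNA and 203 ± 22.5 CPM with the Luc siRNA (SD, n = 3 each). Myog fell by 3.33 (SE 0.15, edgeR adjusted p = 7.4e-10) in ethanol, and Myf5, a factor of undifferentiated myoblasts, by 0.26 (SE 0.06, edgeR adjusted p = 0.0027).

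The genes whose profile over the 12 libraries was most like that of Hfe2 were muscle genes. Likeness was the root mean square difference of centred log2(CPM + 0.5) over the 12 libraries, among 7007 genes that averaged 5 CPM or more, and is a description because Hfe2 was chosen on these libraries. Acta1, skeletal alpha-actin, was closest at 0.290, followed by Myog at 0.319, Actc1, cardiac alpha-actin, at 0.333, Klhl41, a sarcomere-associated protein, at 0.334, and Myom2, an M-band protein, at 0.372. Klhl41 averaged 3.37 ± 0.381 CPM with the Crebl2 siRNA in rapamycin, 5.98 ± 0.880 CPM with the Crebl2 siRNA in ethanol, 12.8 ± 2.52 CPM under the Luc siRNA in rapamycin and 29.5 ± 3.32 CPM under the Luc siRNA in ethanol (SD, n = 3 each). The group means of all 5 genes came in the same order as those of Hfe2. Acta1 and Actc1 have closely similar coding sequences, so the split of reads between them is uncertain. The summed level of the 6 myoblast and muscle markers ranged over 1859 to 1892 CPM (Crebl2 siRNA, rapamycin), 1656 to 1897 CPM (Crebl2 siRNA, ethanol), 1790 to 2053 CPM (Luc siRNA, rapamycin) and 2011 to 2261 CPM (Luc siRNA, ethanol). Des, which encodes desmin, made up most of that sum, with group means of 1472 to 1550 CPM. Mymk, the myoblast fusion gene myomaker, averaged 0.937 CPM (Crebl2 siRNA, rapamycin), 2.87 CPM (Crebl2 siRNA, ethanol), 4.19 CPM (Luc siRNA, rapamycin) and 14.7 CPM (Luc siRNA, ethanol), in the order of Hfe2. The part of cell state or cell make-up in the Hfe2 values was not tested.

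**Figure D4:**
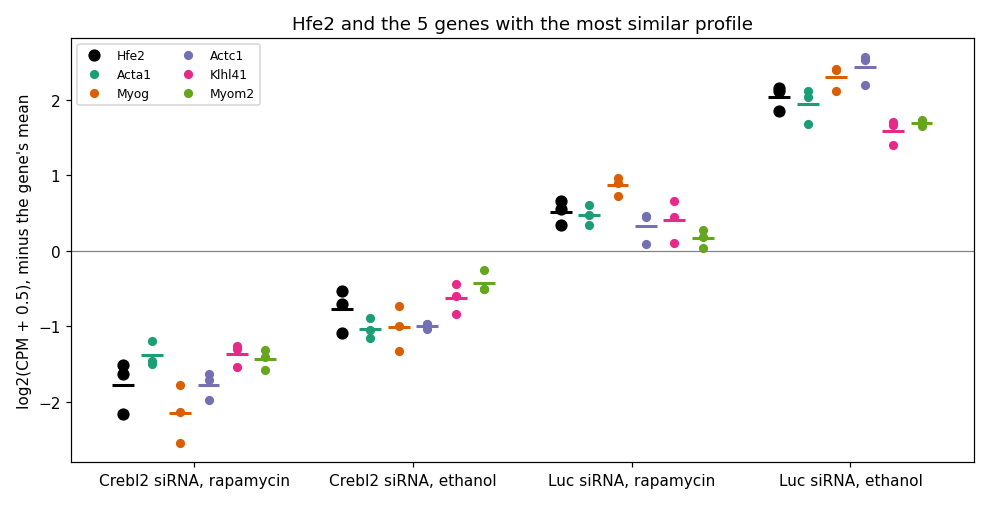
Hfe2 and the 5 genes with the most similar profile, as log2(CPM + 0.5) minus each gene's mean over the 12 libraries. Points are libraries and bars are group means, and all 6 genes are highest with the Luc siRNA in ethanol and lowest with the Crebl2 siRNA in rapamycin.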

How the data were processed

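For each of 12 total RNA libraries the authors deposited raw counts of reads over 58611 Ensembl transcripts, with no normalization. Per the submitters' processing notes, the tools were Trim Galore, TopHat and HTSeq and the builds mm9 and GRCm38. Versions, annotation release and strand setting are not given in the sources used here. Of the identifiers, 99.41% matched GENCODE M21 on GRCm38, and their counts were summed per gene, because the planned tests assumed genes. Counts were fitted over all 12 libraries with edgeR 4.0.16 (R 4.3.3; TMM scaling, filterByExpr with a minimum count of 10, quasi-likelihood F test of 1 mean per group), adjusted by Benjamini-Hochberg over 13247 genes. SE was taken from the ratio of the log2 fold change to the root of its F. The scripts were tested on simulated data. Alternatives were RLE scaling, DESeq2 1.42.0, other count filters, other gene sets, transcripts one by one, the compared groups alone, a replicate block and leaving out each library.

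The members and lists were chosen with earlier results of these data known. Beside the members, the siRNA target and the 5 genes most like Hfe2, the rule named, from each list and each pairwise comparison, up to 3 called genes with the smallest p. Rgma, Bmp2, Hamp, Des and Mymk are named outside it, for their counts or as markers, and 1 gene that the rule names is not reported here. The labels' replicate numbers were not taken to pair libraries.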

Additional observations from a re-analysis of the deposited data

Results flagged for a closer look

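A difference in the response to rapamycin between the siRNAs passed the interaction test for 5 of the genes named (edgeR adjusted p under 0.05). Hey1 fell less with rapamycin under the Crebl2 siRNA than under the Luc siRNA, an interaction of 0.64 on the log2 scale (SE 0.12, edgeR adjusted p = 0.012). It averaged 18.4 CPM in rapamycin and 30.4 CPM in ethanol with the Crebl2 siRNA, and 12.7 CPM in rapamycin and 32.6 CPM in ethanol with the Luc siRNA. Tcf4, which encodes an E protein, had an interaction of 0.79 (SE 0.18, edgeR adjusted p = 0.046), a call lost in 9 of the 12 fits that left out a library. Among the genes most like Hfe2, the interaction was 1.13 for Acta1, 1.27 for Actc1 and 0.50 for Myom2, each with a smaller relative fall under the Crebl2 siRNA. Acta1, Actc1 and Myom2 were ranked by likeness on these same libraries.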

How the results depend on the processing

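Of 1013 values of the members recomputed under the alternatives, 965 were unchanged, 36 lost the call and 12 gained it. Unchanged means on the same side of the threshold. For Hfe2 between siRNAs and in the interaction, which carry no test, it means a log2 fold change moved by no more than its largest SD within a group. The sign turned in 42, none of them called before or after. The lost calls were those of Bmp4 (Crebl2 siRNA in ethanol), Bambi (Crebl2 siRNA in rapamycin) and Bmpr2 (rapamycin), and the gained ones those of Smad6 and Smad7 (Crebl2 siRNA). Of 3264 values of the other named genes, 96 lost a call and 35 gained one, and the sign turned in 102, none of them called before or after. Counts of called genes stayed within 1.5 times in the 4 simple comparisons. The interaction called 81 genes higher and 78 lower. Higher calls numbered 186 with DESeq2, 310 with no count filter and 134 with transcripts one by one, and 56 to 136 when each library was left out. Lower calls numbered 198 with DESeq2, 49 with RLE scaling and 35 with transcripts one by one, and 18 to 63 when each library was left out. The causes were not tested. Replicate numbers showed no pairing (deviations correlated from −0.29 to 0.12 over 18 pairs, and 3 of 12 libraries correlated best with their own number). With the replicate block the interaction called 36 genes lower, and Bmp4, Bambi and Bmpr2 (rapamycin with the Crebl2 siRNA) each lost the call named above. Id1, Bmp4, Bmpr1a and Smad7 have under 90% countable bases and gave no value in that alternative. Id1 and Bambi rest on few reads, which limits what could be detected.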
